A study of Mus musculus with 8 samples.

Results

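The replication-dependent histone genes of the mouse were followed through a replication timing experiment in embryonic stem cells with and without acute loss of CTCF. Members were the autosomal protein-coding genes whose current symbol begins with H1f, H2ac, H2bc, H3c or H4c followed by a number (Hist1h, Hist2h and Hist3h in older naming). The rule took 67 genes of the 21074 protein-coding genes that had a timing score, and all 67 had one. The 67 genes lie in 3 clusters and 4 single positions: 10 genes on chromosome 3, 22 in a proximal and 31 in a distal block on chromosome 13, and H1f10, H1f8, H1f0 and H1f7 alone. Another 3 genes fit the rule only by an older symbol and were not counted as members: H2bu2 and H2aw on chromosome 11, and a gene listed as H4bc24 inside the proximal block.

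E14Tg2a is a male mouse embryonic stem cell line. In the line used here CTCF, the DNA-binding protein of insulators that halts cohesin at chromatin loop anchors, carries a degron by which auxin triggers its breakdown. Both groups are of this degron line, which derives from E14Tg2a and was grown with serum and leukemia inhibitory factor. Cells of the auxin group were kept for 2 days in 500 µM auxin (indole-3-acetic acid), and the control group had none. Cells without the degron are not analysed here, so effects of the auxin and of the loss of CTCF cannot be told apart. Cells were labelled with BrdU for 2 hours and sorted by DNA content into early and late S phase, and the labelled DNA of each fraction was sequenced. The 8 libraries form 4 profiles, 2 per group. The labels number the replicates but do not say that they were separate cultures, so the spread between them may be technical.

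Each profile is a timing score on a 6-kb grid of 316864 windows. A higher score means earlier replication. The 4 columns have the same distribution, with an SD of 2.10 over all windows. The log base and formula of the score are not stated, so differences are given in score units. Scores above 0.5 are called early here, scores below -0.5 late, and scores between them middle. No read counts were in the files used, so the depth behind each score is unknown.

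Replication-dependent histone genes encode the core histones H2A, H2B, H3 and H4 and the linker histones H1 that package DNA as it is copied. They are short, mostly without introns, and end in a stem-loop in place of a poly(A) tail, and their transcription rises at the start of S phase. Their loci gather in the histone locus body, where NPAT, activated by cyclin E with CDK2, works with family-specific promoter factors. The sets also hold genes with other roles: H2ac1, H2bc1, H1f6 and H1f7 are testis histones, H1f8 is the oocyte linker histone, and H1f0 and H1f10 encode linker histones whose making is not tied to S phase.

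Promoters of the members show how the families differ in sequence while lying side by side. RefSeq promoters of GRCm38.p6, from 250 bases before to 50 after the annotated start, were found for 62 of the 67 genes (63 promoters, since H2bc6 has a pair). The promoters of H4c9, an early-replicating gene of the proximal block, and H4c3, a late one of the distal block, are shown first, with the letters CNGGTCCG (either strand) at the core of the H4 element in capitals.

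H4c9 (chr13:22041363-22041612, minus strand): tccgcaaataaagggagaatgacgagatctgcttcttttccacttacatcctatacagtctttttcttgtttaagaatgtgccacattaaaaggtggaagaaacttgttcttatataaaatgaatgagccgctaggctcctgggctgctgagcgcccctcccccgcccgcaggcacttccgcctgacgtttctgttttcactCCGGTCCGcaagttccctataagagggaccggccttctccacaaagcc
H4c3 (chr13:23698459-23698708, minus strand): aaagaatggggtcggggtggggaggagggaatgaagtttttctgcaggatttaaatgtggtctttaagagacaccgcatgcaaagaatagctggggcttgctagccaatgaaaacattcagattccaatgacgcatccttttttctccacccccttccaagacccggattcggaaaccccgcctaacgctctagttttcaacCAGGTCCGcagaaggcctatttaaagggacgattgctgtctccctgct

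In both, the match begins 48 bases before the annotated start, although the genes lay far apart in timing (control score 2.14 for H4c9 and -0.78 for H4c3). The core was in 7 of 11 H4 promoters and in 0 of 52 promoters of the other histone families, against 3.05% of all 32851 promoters in the table.

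The next sequences are H2B and H2A promoters with the octamer ATTTGCAT (either strand) in capitals. H2bc12 is early, H2bc3 late, and H2ac1 shares its promoter with H2bc1, the gene pair with the lowest differences among the members. The stretch of H2bc12 is 177 bases long, up to the start of H2ac12 on the other strand.

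H2bc12 (chr13:22035644-22035820, plus strand): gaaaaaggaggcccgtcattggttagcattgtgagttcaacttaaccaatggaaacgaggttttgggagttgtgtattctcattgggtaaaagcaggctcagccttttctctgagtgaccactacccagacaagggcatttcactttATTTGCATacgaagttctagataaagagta
H2bc3 (chr13:23746484-23746733, plus strand): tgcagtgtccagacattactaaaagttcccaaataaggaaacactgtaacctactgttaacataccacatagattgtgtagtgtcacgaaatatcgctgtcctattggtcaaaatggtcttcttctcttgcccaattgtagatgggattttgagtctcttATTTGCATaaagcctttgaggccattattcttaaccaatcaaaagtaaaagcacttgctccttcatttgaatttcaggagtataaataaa
H2ac1 (chr13:23934187-23934436, plus strand): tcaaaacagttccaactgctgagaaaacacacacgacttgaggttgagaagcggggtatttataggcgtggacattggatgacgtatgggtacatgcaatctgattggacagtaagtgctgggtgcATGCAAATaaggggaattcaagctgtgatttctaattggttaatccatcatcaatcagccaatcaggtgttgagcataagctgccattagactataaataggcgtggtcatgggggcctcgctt

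The octamer, which POU2F1 binds, was in 6 of 17 H2A and 7 of 15 H2B promoters, in none of the H1, H3 and H4 promoters, and in 1.74% of all promoters. CCAAT was in all 17 H2A, all 15 H2B and all 10 H3 promoters, in 7 of 10 H1 and in 3 of 11 H4 promoters, against 37.4% of all. TATAAA was in 34 of the 63 member promoters, against 13.6%. AAACACA, the H1 box, was in 5 of 10 H1, 2 of 17 H2A and 2 of 15 H2B promoters and in none of the H3 and H4 promoters, against 7.18%. The letters CAGGNGGC from the core of the CTCF motif were in 5 of the 63 (H1f10, H1f1, H1f7, H3c15 and H3c14), against 9.71% of all promoters. All motifs were searched on both strands of the 300 bases, and a match is a description of letters, not of binding. An H2A and an H2B gene that share a promoter can hold the same match, which then counts in both families. The octamer was counted for both partners at H2ac12 with H2bc12, H2ac8 with H2bc8 and H2ac1 with H2bc1.

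**Figure D1:**
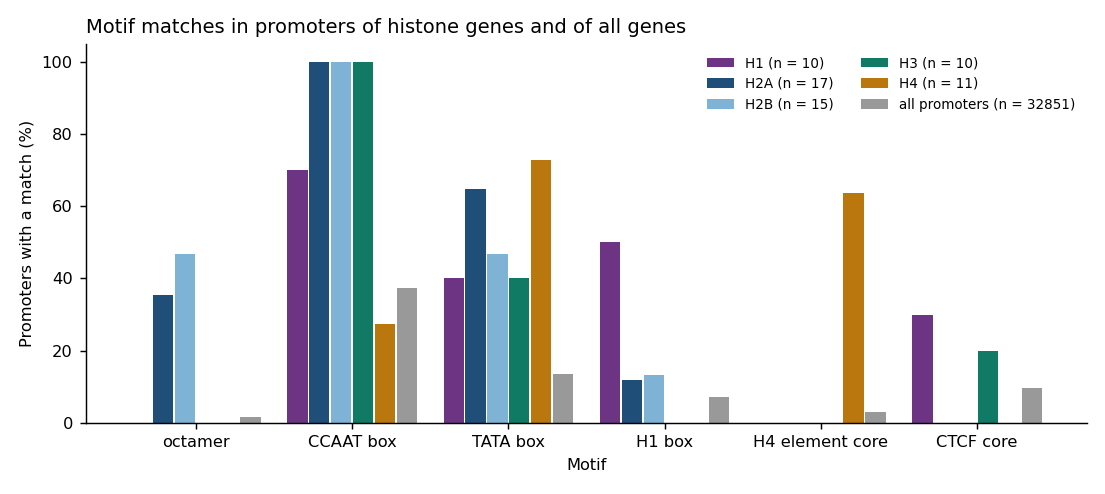
Share of promoters (percent) with a match to each of 6 motifs, by histone family and for all 32851 promoters in the table. The H4 element core was in 63.6% of H4 promoters and in no other histone promoter, while CCAAT was in every H2A, H2B and H3 promoter.

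H2A and H2B genes often lie head to head over a shared promoter. Among genes with a promoter in the table, such divergent pairs numbered 9, with starts 164 to 281 bases apart, and in 6 of them both genes had exactly the same windows. Timing scores cannot separate the partners of those 6. Shared windows were common: the median member is 496 bp long, 50 members overlap 1 window, 12 overlap 2, H2bc6 overlaps 7, and 4 overlap none and took the nearest window. The 67 genes rest on 52 windows, and 37 share all their windows with another member, so counts of members below are not counts of independent loci.

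Without auxin, the control scores of the histone genes ran from -1.24 (H2ac4) to 3.19 (H1f10). Early scores were found for 47 members (70.1%, against 67.4% of all genes), middle for 7 (10.4%, against 8.87%) and late for 13 (19.4%, against 23.8%). With auxin the counts were again 47, 7 and 13, and 6 members had another class than in the controls. The median control score was 1.42 over the members and 1.89 over all genes. Every core histone family held nearly the whole range and ran from about -1.24, in the distal block, to above 2.6, in the chromosome 3 cluster. H4, for example, ran from -1.24 (H4c2) to 2.64 (H4c14), and H2B from -1.24 (H2bc3) to 2.69 (H2bc18). Linker histone genes of the clusters ran from -1.22 (H1f2) to 1.85 (H1f3).

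**Figure D2:**
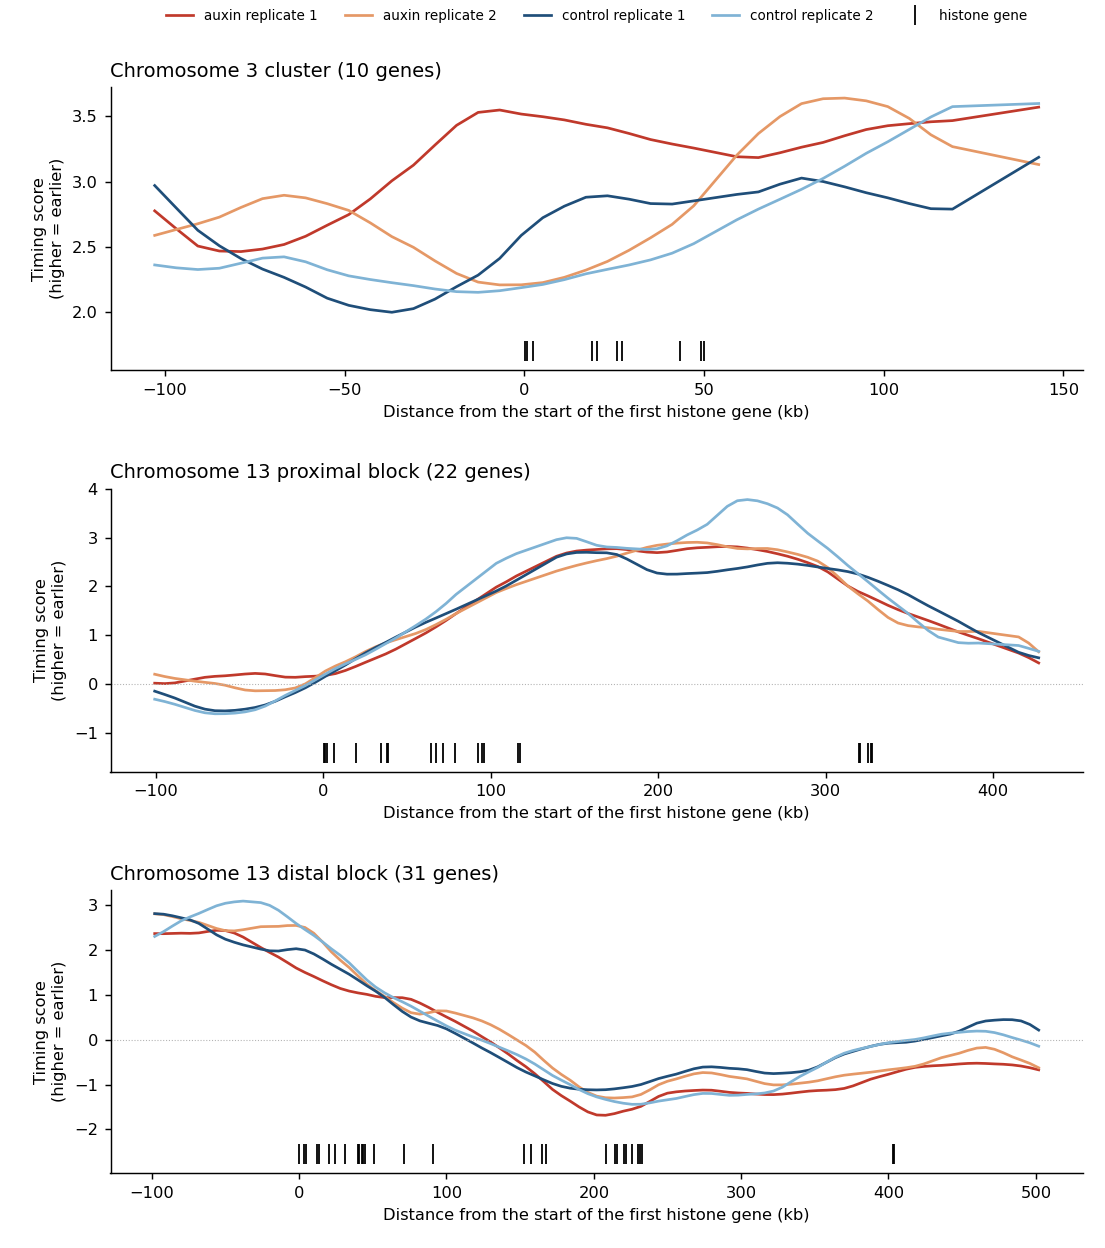
Timing score of every 6-kb window in each of the 4 profiles over the 3 clusters and 100 kb on each side, with the histone genes as ticks. The horizontal axis is the distance in kb from the start of the first histone gene. The proximal block climbs from near 0 at H2bc13 to above 2 at H4c18. The distal block falls from between 1.59 and 2.58 at H4c8 to below -1 at H1f2 and climbs again towards H2ac1, and the chromosome 3 cluster stays above 2 in all profiles.

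The chromosome 3 cluster replicated early in all 4 profiles. Over its 9 windows (chromosome 3, 96219885 to 96270192, 50.3 kb, mm10) the mean score was 2.81 and 2.33 in the controls and 3.40 and 2.44 with auxin. The groups overlapped, because auxin replicate 2 lay between the controls. The group means were 2.57 ± 0.34 and 2.92 ± 0.68 (SD, n = 2), a difference of 0.35 (exact permutation p = 0.667, two-sided). With 4 profiles the smallest p that this test can give is 0.333, so it could not reach 0.05 for any cluster. Without auxin replicate 1 the difference was -0.13.

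All 10 genes here had a higher auxin mean, by 0.29 to 0.48, and in all 10 the groups overlapped. The core genes H2ac21 and H2ac20 share a window and had the largest difference. Their score was 2.59 and 2.19 in the controls and 3.52 and 2.21 with auxin. Auxin replicate 1 alone stood high. The difference was 0.48 (SE 0.42, limma adjusted p = 0.59), and without that profile it was -0.18. H2bc21 came next, at 2.65 and 2.20 in the controls and 3.51 and 2.22 with auxin, and it showed the same single high profile. Its difference was 0.44 (limma adjusted p = 0.626), or -0.21 without auxin replicate 1. At the other end of the cluster, the H3 gene H3c13 and H2bc18 scored 2.85 and 2.52 in the controls and 3.26 and 2.81 with auxin. Only 3 of the 10 genes (H4c14, H3c13 and H2bc18) kept a higher auxin mean whichever profile was left out.

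The proximal block of chromosome 13 (21715711 to 22043658, 328 kb, 22 genes) held a rise in timing along its first genes. H2bc13, H2ac13 and H3c10 at its start had a control score of 0.18, the linker gene H1f5 in its middle had 1.36, and H4c18 and H2ac24 had 2.40, within 116 kb. The next 202 kb hold H4bc24, Zfp184, Pom121l2 and Prss16, which are not members, before the last 5 histone genes. The drop from H4c18 to H2bc13 was 1.97 and 2.47 in the controls and 2.04 and 1.77 with auxin, so the groups overlapped (difference -0.32, exact permutation p = 0.667). The mean over the 47 windows of the block was 1.97 and 2.43 in the controls and 2.05 and 2.06 with auxin. Both auxin profiles lay between the controls. The means were 2.20 ± 0.33 and 2.05 ± 0.014 (SD, n = 2), a difference of -0.14 (exact permutation p = 1). Without control replicate 2 it was 0.086.

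Of these 22 genes, 19 had a lower and 3 a higher auxin mean, and 18 were early and 4 middle in the controls (17 and 5 with auxin). The lowest differences belonged to the last 5 genes of the block, the pairs H2ac12 with H2bc12 and H2ac11 with H2bc11, and H4c9. H4c9 scored 2.19 and 2.10 in the controls and 1.80 and 1.70 with auxin. H2ac12 and H2bc12 scored 2.25 and 2.26 in the controls and 1.90 and 1.85 with auxin. Both auxin profiles lay below both controls at all 5 genes. The difference was -0.39 for each (SE 0.20, limma adjusted p = 0.365 for H4c9 and 0.363 for H2ac12), and its 95% interval for H4c9, -0.87 to 0.086, held 0. The same lack of overlap was seen at H1f5, H3c11, H2ac22 and H2bc22. That made 9 of the 22 genes, while 25.9% of all genes had both auxin profiles below both controls. Each of the 9 shares or adjoins the windows of others among them, so they are not independent observations. H1f5, for example, scored 1.31 and 1.40 in the controls and 1.11 and 1.16 with auxin, a difference of -0.22 (limma adjusted p = 0.603). The 3 genes with a higher auxin mean, H2bc13, H2ac13 and H3c10, share 1 window with 0.154 and 0.201 in the controls and 0.172 and 0.264 with auxin. Their difference was 0.040, and -0.0051 without auxin replicate 2. H4c11, a little further on, had a mean of 0.51 in the controls and 0.46 with auxin, on either side of the threshold between early and middle.

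The distal block (23531044 to 23934913, 404 kb, 31 genes) begins 1487 kb further on and spans the widest range of timing. Its first genes were early: H4c8 had a control score of 2.30. The score then fell along the H2A, H2B, H3 and H4 genes that follow, to 1.12 at H4c4, and crossed 0 between H1f4 and H2ac6. It was lowest over a set of 9 genes from H1f2 to H1f1, all between -1.24 and -1.22. Over 208 kb, from H4c8 to H1f2, the score dropped by 3.14 and 3.92 in the controls. With auxin the drop was 3.28 and 3.83, between the control values (difference 0.030, exact permutation p = 1). From H1f2 to H2ac1 the score climbed again, by 1.05 and 1.29 in the controls and by 0.969 and 0.644 with auxin. Those groups did not overlap (difference -0.36, exact permutation p = 0.333, the smallest possible). In the controls 15 genes were early, 3 middle and 13 late, and with auxin 16, 2 and 13.

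The block's mean over 68 windows was -0.18 and -0.23 in the controls and -0.48 and -0.17 with auxin. Only auxin replicate 1 lay apart from the others. The means were -0.21 ± 0.038 and -0.33 ± 0.22 (SD, n = 2), a difference of -0.12 (exact permutation p = 1). Without auxin replicate 1 it was 0.037.

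The sign of the difference came in 3 stretches along this block. The first 14 genes, from H4c8 to H4c4, had lower auxin means, with differences of -0.26 to -0.098. The next 6 genes, H2bc6, H1f4, H2ac6, H2bc4, H1f6 and H4c3, had higher ones, with differences of 0.067 to 0.24. The last 11, from H1f2 to H2ac1, had lower ones again, with differences of -0.64 to -0.13. Of the 31 genes, 13 stayed lower and 1, H1f4, stayed higher whichever profile was left out, and the other 17 turned sign at least once. Neighbouring genes have overlapping or adjoining windows of a smooth profile, so each stretch is closer to 1 observation than to its number of genes.

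H1f4, the gene of linker histone H1.4, lies where early gives way to late. It scored 0.338 and 0.466 in the controls and 0.661 and 0.619 with auxin. Both auxin profiles lay above both controls, and its mean was in the middle class in the controls and in the early class with auxin. The difference was 0.24 (SE 0.20, limma adjusted p = 0.573). H2ac6, 61 kb further on, scored -0.723 and -0.433 in the controls and -0.606 and -0.133 with auxin. Its groups overlapped, and its difference of 0.21 (limma adjusted p = 0.699) was -0.028 without auxin replicate 2. H2ac6 and H2bc4 were late by their control mean and middle by their auxin mean.

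The position at which the score fell through 0 was measured in each profile, a measure added after the scores were seen. It lay at 23644.7 and 23653.8 kb in the controls and at 23658.3 and 23678.5 kb with auxin. Both auxin positions were further into the late side, by 19.1 kb on average (exact permutation p = 0.333, the smallest possible). Leaving out 1 profile gave 9.0 to 29.2 kb, with 9.0 kb without auxin replicate 2 and 29.2 kb without auxin replicate 1. The direction depended on the level: the shift was 25.6 kb at a score of 0.5 but -6.4 kb, towards the early side, at a score of 1, where the groups overlapped (exact permutation p = 0.667). On the rising side of the proximal block, the score passed 1 at 21761.4 and 21761.8 kb in the controls and at 21774.6 and 21767.8 kb with auxin. This was 9.6 kb closer to the early side (exact permutation p = 0.333), and 6.2 kb without auxin replicate 1. At a score of 0.5 the groups overlapped there (3.8 kb, exact permutation p = 1, and -2.9 kb without auxin replicate 1), and at 1.5 the shift was 9.6 kb (exact permutation p = 0.333).

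H2bc1 and H2ac1, the testis histones TH2B and TH2A, lie by themselves, 169 kb beyond H1f1 at the end of the distal block. H2bc1 scored -0.0749 and -0.0569 in the controls and -0.744 and -0.662 with auxin. H2ac1, on the other side of the promoter printed above, scored -0.0697 and -0.0439 in the controls and -0.716 and -0.651 with auxin. In both genes each auxin profile lay far below both controls, and replicates of a group differed by under 0.1. The mean of H2bc1 was -0.066 ± 0.013 in the controls, in the middle class, and -0.70 ± 0.058 with auxin, in the late class (SD, n = 2). The difference was -0.64 (SE 0.20, 95% interval -1.11 to -0.17) for H2bc1 and -0.63 for H2ac1. Limma's adjusted p was 0.21 and 0.212. Limma with a trended and robust variance gave adjusted p of 0.0528 and 0.0556, just above the threshold of 0.05. A difference as low as that of H2bc1 or lower was found in 6.89% of all genes.

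The stretch around this pair had differences of the same sign and size. The 50-kb bin that holds it (23900001 to 23950000, 8 windows) scored -0.121 and -0.104 in the controls and -0.808 and -0.686 with auxin. Its difference was -0.63 (95% interval -1.09 to -0.18), with a limma adjusted p of 0.12 and 0.0245 with the trended, robust variance. That variance called 10.8% of all bins. The neighbouring genes that are not members were among the largest differences within 500 kb of the block: Slc17a4, a phosphate transporter family gene, at -0.63 and Scgn, which encodes the calcium binding protein secretagogin, at -0.60 (limma adjusted p = 0.228 and 0.233). In the gap between H1f1 and H2bc1 the difference was more negative nearer the pair, from -0.039 at Slc17a2 and -0.14 at Slc17a3 to -0.40 at Slc17a1.

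**Figure D3:**
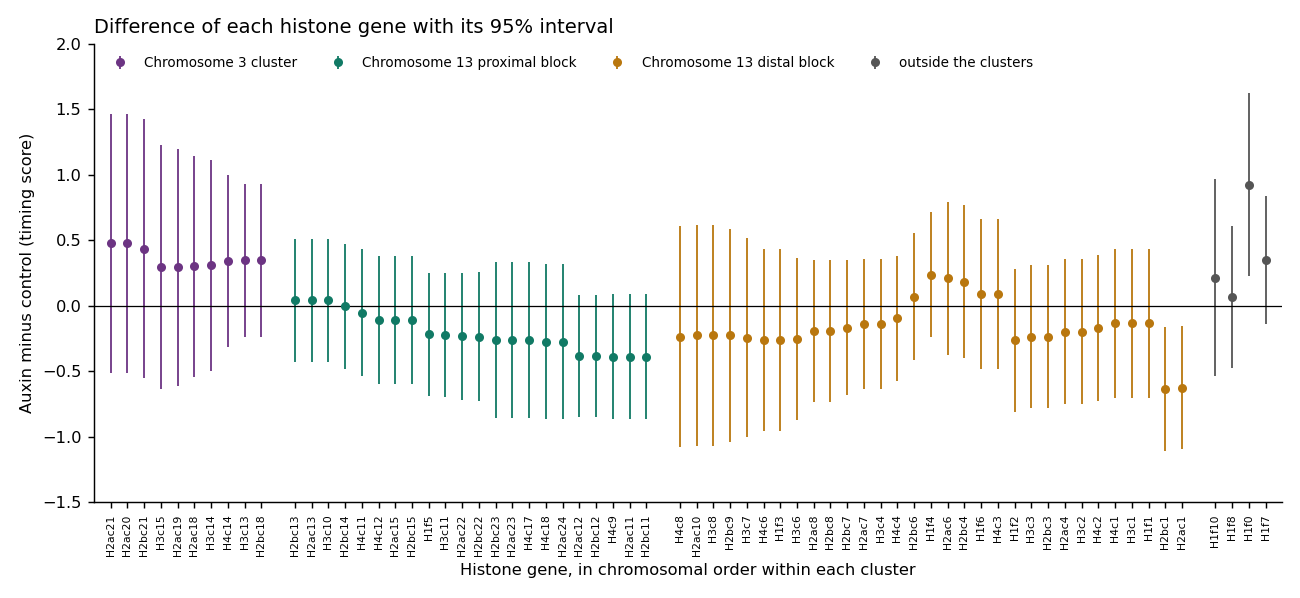
Auxin minus control difference (timing score, limma estimate) of each of the 67 histone genes, with its 95% interval, in chromosomal order within each cluster. Intervals leave out 0 at H2bc1 and H2ac1, which are lower with auxin, and at H1f0, which is higher. The intervals are not adjusted for the number of genes, and no member had a limma adjusted p under 0.05. An unadjusted p under 0.05 was found for 17.1% of all genes. Genes that share a window repeat the same value.

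Among the 4 single linker histone genes, H1f0 had the largest difference of all members. This gene of H1.0, on chromosome 15, scored 2.56 and 3.14 in the controls and 3.49 and 4.06 with auxin. Both auxin profiles were above both controls, although replicates of each group also differed by more than 0.5. The means were 2.85 ± 0.41 and 3.77 ± 0.40 (SD, n = 2), a difference of 0.92 (SE 0.29, 95% interval 0.23 to 1.62, limma adjusted p = 0.213, or 0.151 with the trended, robust variance). A difference as high or higher was found in 1.21% of all genes. H1f0 overlaps 1 window.

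The other three had smaller differences. H1f7, the linker histone of spermatids, scored 0.976 and 0.778 in the controls and 1.18 and 1.28 with auxin, without overlap (difference 0.35, limma adjusted p = 0.42). H1f8 scored 2.75 and 2.31 in the controls and 2.59 and 2.60 with auxin, inside the control range, with a difference of 0.066. H1f10 scored 3.09 and 3.28 in the controls and 2.95 and 3.85 with auxin, on either side of them, with a difference of 0.21. The sign turned without control replicate 2 for H1f8 (-0.15) and without auxin replicate 2 for H1f10 (-0.24).

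**Figure D4:**
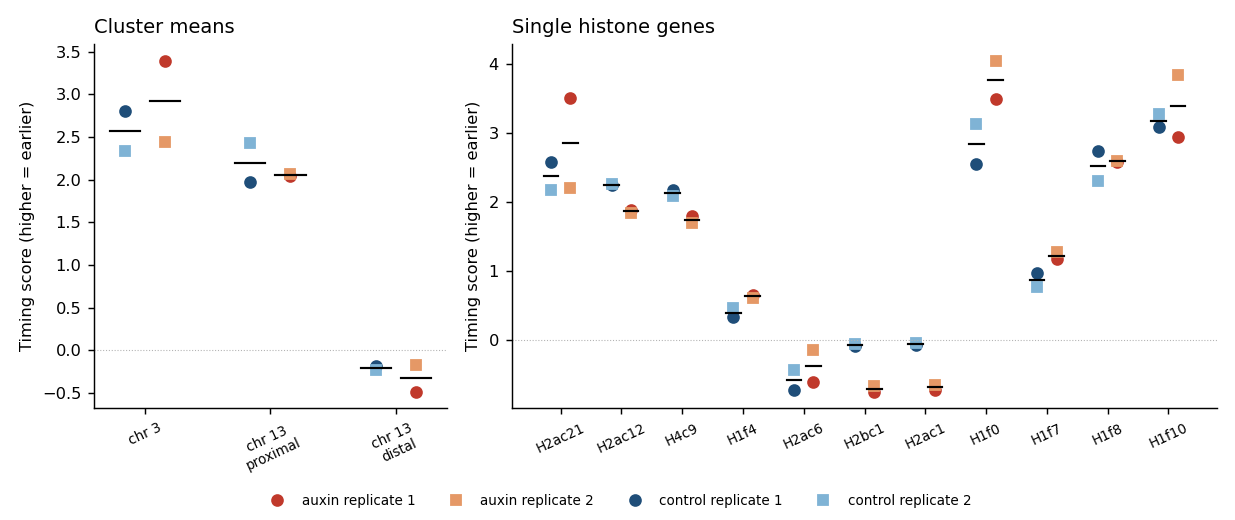
Timing score in each of the 4 profiles (circles replicate 1, squares replicate 2) with the group means as bars, for the 3 clusters on the left and 11 single histone genes on the right. At H2bc1 and H2ac1 the auxin profiles lie at -0.744 to -0.651, below all control values, and at H1f0 they lie at 3.49 and 4.06, above both controls.

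Across all 67 genes, no member passed limma's test at an adjusted p under 0.05. This was 0 of 67 against 0% of all 21074 genes, whose smallest adjusted p was 0.172, so the test across genes called nothing to compare the members with. An unadjusted p under 0.05 was found for 3 members (H2bc1, H2ac1 and H1f0), a share of the 67 below the 17.1% of all genes. With the trended, robust variance limma called 0 members and 5.31% of all genes. Non-overlapping groups were found for 11 members in the later direction, against 25.9% of all genes, and for 3 in the earlier direction (H1f4, H1f0 and H1f7), against 23.9%. A lower auxin mean was found for 44 members and a higher one for 23, while 50.1% of all genes had a lower one. The median difference of the members was -0.14, against -0.00043 over all genes. That median went from -0.24 to -0.0055 when 1 profile was left out in turn. At single genes, 2 profiles of one group differed by a median of 0.28 (control) and 0.26 (auxin) at the members, against 0.26 and 0.22 over all genes.

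Bins of 50 kb, which average more windows than a histone gene, were tested over the whole genome where they held at least 3 windows. The clusters were covered by 18 such bins, of which limma called 0 at an adjusted p under 0.05, against 1.66% of 42710 bins, and 1 had an unadjusted p under 0.05. With the trended, robust variance, 1 of the 18 was called, the bin of H2bc1 and H2ac1, against 10.8% of all bins. The nearest called bin lay 820 kb from the chromosome 3 cluster, 966 kb from the proximal block and 915 kb from the distal block. The last of these (chromosome 13, 24850001 to 24900000) was later with auxin by 1.05. The authors' deposited table of regions lists 63 that turned later and 22 that turned earlier, and they overlapped 0 of the 67 histone genes and 0.517% of all 21074 genes. The nearest of them to the chromosome 13 blocks, a later one at 26094000 to 26274000, lay 2159 kb from the distal block.

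Non-member genes inside the clusters or within 500 kb of them were compared next. Of the 39 at the proximal block 4 lay inside it, among them H4bc24, which has the same scores as H4c18. Of the 23 at the distal block 6 lay inside it. None of the 32 genes around the chromosome 3 cluster, the 39 around the proximal block or the 23 around the distal block was called by limma with either variance. Over all genes, limma called 0% with the main fit and 5.31% with the trended, robust variance. An unadjusted p under 0.05 was found for 3, 3 and 2 of them, against 17.1% of all genes. The genes around chromosome 3 were all early in the controls, between 2.12 and 3.65. Rnf115, a ubiquitin ligase gene, had the largest difference there (0.72), followed by Bola1 (0.69). Just outside the start of the proximal block, the olfactory receptor genes Olfr1361 and Olfr11 had higher auxin means, by 0.64 and 0.58 (limma adjusted p = 0.218 and 0.235). Olfr11 scored -0.459 and -0.547 in the controls and 0.096 and 0.054 with auxin, without overlap, while at H2bc13, the first gene of the block, the groups overlapped.

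Genes that supply or handle histones were listed by role, and limma called none of the 60 measured at an adjusted p under 0.05. An unadjusted p under 0.05 was found for 10 of the 60 (16.7%), a share close to the 17.1% of all genes. Of 13 genes for histone gene transcription, 12 were early in the controls, and 4 had an unadjusted p under 0.05: Yy1, Ccne1, Casp8ap2 and Pou2f1, all lower with auxin. Npat itself, the coactivator of the histone locus body, scored 1.78 and 2.47 in the controls and 1.97 and 2.26 with auxin, inside the control range. Yy1, a zinc finger factor, had the lowest difference, from 3.42 and 3.16 in the controls to 2.30 and 2.55 with auxin (-0.86, limma adjusted p = 0.175). Ccne1, the gene of cyclin E1, went from 3.15 and 3.52 to 2.38 and 2.77 (-0.76, limma adjusted p = 0.217). Neither pair overlapped. Casp8ap2 encodes FLASH, a 3′ processing factor of the histone locus body, and Pou2f1 the octamer factor. They differed by -0.74 and -0.67.

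Of 18 genes for 3′ end processing and decay of histone mRNA, 16 were early and 1 had an unadjusted p under 0.05. This was Lsm11, a protein of the U7 particle that cuts the transcript, at 2.01 and 1.94 in the controls and 1.28 and 1.42 with auxin (-0.63, limma adjusted p = 0.215). Nelfe, a subunit of the negative elongation factor, came next at -0.48. Slbp, which binds the stem-loop, scored 2.98 and 3.29 in the controls and 3.60 and 3.33 with auxin, a difference of 0.33 (limma adjusted p = 0.492). Of 20 histone chaperone genes, 18 were early and 4 had an unadjusted p under 0.05. Nasp, a carrier of H3 with H4, went from 4.00 and 3.69 to 3.22 and 3.23 (-0.62), and Asf1a, another H3 and H4 chaperone, from -1.47 and -1.12 to -1.97 and -1.80 (-0.59). Mcm2 was also lower (-0.55) and Hat1, a histone acetyltransferase, higher (0.54).

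The replication-independent variants held the largest difference of these lists. H2az1, which encodes the variant H2A.Z, scored 2.30 and 2.53 in the controls and 1.31 and 0.734 with auxin. Both auxin profiles lay below both controls, and the gap was wider than that between replicates. The difference was -1.39 (limma adjusted p = 0.172), and limma with the trended, robust variance called it later with an adjusted p of 0.0117. With that variance 1 of the 60 listed genes was called, against 5.31% of all genes. Of 17 variants listed, 9 were measured. The other 8 variants measured were not called by either fit, among them Macroh2a2, with a difference of 0.42, and the H3.3 genes H3f3a (-0.094) and H3f3b (0.015).

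**Figure D5:**
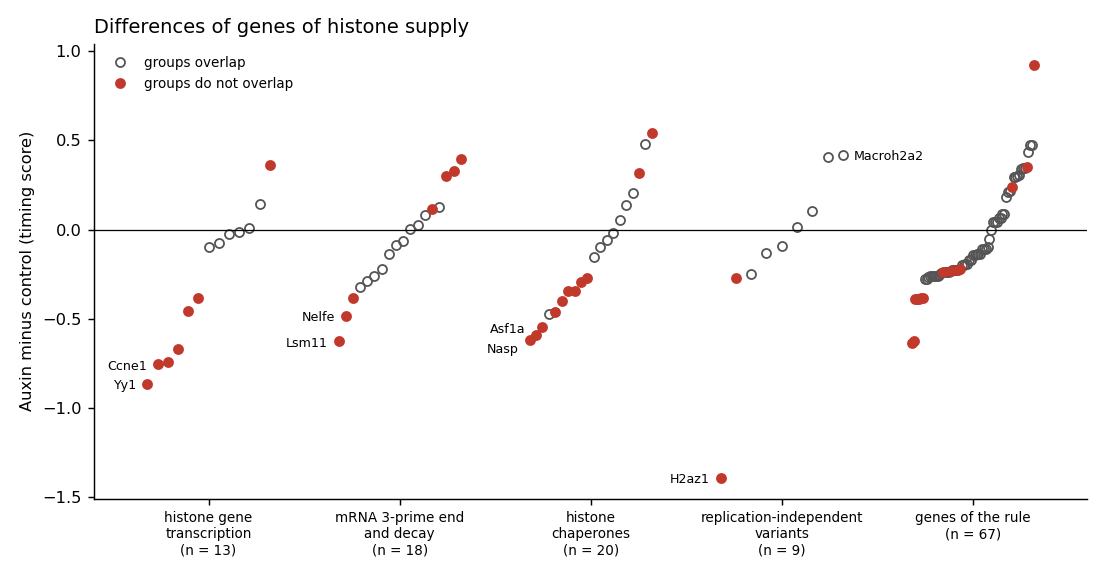
Auxin minus control difference (timing score) of each gene, sorted within 4 lists of genes of histone supply and for the 67 histone genes. Filled points are genes whose auxin and control profiles do not overlap, and the 2 genes with the largest absolute difference of each list are named. H2az1 lies lowest at -1.39, and the 67 histone genes lie between -0.64 and 0.92.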

How the data were processed

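The members and gene lists were chosen with earlier results of these data known. The submitters' processing notes name bedtools, SAMtools and Bowtie2 and the mm10 build. Versions, smoothing and the formula joining early and late libraries were not given in the sources used here. The authors deposited timing scores per window, quantile normalized by them per the file headers (the sorted columns are identical), so a genome-wide shift cannot be seen. Columns were matched to group and replicate number by name. Whether the deposited position is a window's start or centre is unstated, and it was taken as the start.

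Here, a gene's value was the mean of the windows over its body, or the nearest window within 50 kb (1064 of 21074 genes). Coordinates came from RefSeq (GRCm38.p6). Genes on chromosomes 1 to 19 and X, and 42710 bins of 50 kb with at least 3 windows, were fitted with limma 3.58.1 in R 4.3.3 (lmFit, eBayes, no trend, not robust, group as sole term, with 2 residual degrees of freedom), with Benjamini-Hochberg adjustment over all genes or bins and a threshold of 0.05. The fit was also run on simulated independent values with known shifts added, unlike the smooth profiles here, and its outcome is not given here. Limma with a trended, robust variance, other gene values and bins, and each profile left out were alternatives. Clusters were members on one chromosome with gaps up to 500 kb, and their means, drops and switch positions were tested two-sided by exact permutation over the 4 profiles. SDs are over 2 profiles. Depth is unknown. Members given in full were those outside clusters and, in each cluster, the 2 from distinct windows with the largest difference in each direction. From each list, and from the non-member genes inside each cluster or within 500 kb of it, the 2 genes with the largest absolute difference were named. Other genes and stretches (such as H4c11, H1f5, Npat, Slbp and the Slc17a genes) were chosen after their values were seen. Near-identical histone genes may share reads, and the treatment of such reads was not given in the sources used here. Timing scores do not measure expression, so the stem cell label was not checked against markers.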

Additional observations from a re-analysis of the deposited data

How the results depend on the processing

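No member was called by limma under the settings fitted, apart from 2 with a trended, robust variance combined with another gene value. These were H2bc1 and H2ac1, which overlap a common window. Both were called later with windows within 25 kb of the midpoint, and both when only genes that overlap a window were tested. Both combinations were chosen after seeing the data, and the share of all genes called under them is not given here. With the main gene value that variance called 5.31% of all genes. It called 1 cluster bin later at 50 kb, against 10.8% of all bins, and 1 at 100 kb, where the share is not given here. The 100-kb fit with that variance was also chosen after seeing the data. Among the related lists it called 1 gene, H2az1. Leaving out each profile in turn gave cluster differences of -0.13 to 0.83 (chromosome 3), -0.38 to 0.086 (proximal block) and -0.28 to 0.037 (distal block), and a member median of -0.24 to -0.0055. Spans widened by 50 kb on each side gave 0.47, -0.085 and -0.17, and the median of the windows gave 0.32, -0.038 and -0.36. Exact permutation p was 0.333, the smallest possible, for the widened chromosome 3 and distal spans and for the distal median. In those settings the groups did not overlap. Of 13 singly reported genes under 65 alternatives, 59 kept their direction and 6 turned it, each without 1 profile: H2ac21 (range -0.18 to 1.13), H2bc21 (-0.21 to 1.08), H2bc13 (-0.0051 to 0.0861), H2ac6 (-0.028 to 0.44), H1f8 (-0.15 to 0.29) and H1f10 (-0.24 to 0.66). The cause was not tested. With the replicate block, 0 members and 0 cluster bins were called and the member median was -0.14. The labels give no shared source for a number, and deviations of same-numbered profiles correlated at 0.10 over all genes and 0.59 over the members. Counts of early and late members stayed within 1.5 times under their alternatives. In the controls, 52 were early and 15 late at a threshold of 0, and 41 and 9 at a threshold of 1. The middle class takes what these leave, so it varied more, and at a threshold of 0 none is left. The distal switch shift of 19.1 kb at score 0 was 25.6 kb at 0.5 and -6.4 kb at 1, and the proximal one of 9.6 kb at score 1 was 3.8 kb at 0.5. All these levels were chosen after seeing the data. Unknown depth and 2 profiles per group limit what differences could be called.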
